A study of Sus scrofa with 15 samples.

Results

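Ubiquitin-conjugating enzymes (E2s) and the ubiquitin-activating enzymes (E1s) that load them were followed through pig oocyte maturation. The genes were taken from the deposited gene table by symbol, as every row whose symbol starts with UBE2 or is *UBA1*, *UBA2*, *UBA3*, *UBA6*, *SAE1* or *BIRC6*. This gave 35 of the 22516 genes of the table. Positions of named genes are those of RefSeq on Sscrofa11.1, found by symbol for 33 of the 35. Of these, *UBE2QL1* had 0 counts in each of the 8 columns of the table that were used, and the other 34 had counts and passed the filter on low counts, so that 34 of 35 were tested. No row carried the symbol of *UBA2*, *UBE2N*, *UBE2L3*, *UBE2F* or *UBE2U*, and these genes were not analysed here.

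Ubiquitin is attached to proteins by a relay of enzymes. An E1 activates ubiquitin with ATP and passes it to the active cysteine of an E2, which, together with an E3 ligase, transfers it to a lysine of the substrate or of a growing ubiquitin chain. The E2 often decides which chain is built: some chains send proteins to the proteasome, others mark DNA damage or signalling complexes. Related relays attach the ubiquitin-like proteins SUMO, NEDD8 and ISG15. In oocytes, a well known ubiquitin ligase is the anaphase promoting complex/cyclosome (APC/C), which marks cyclin B and securin for destruction at the first meiotic anaphase. Its E2s are UBE2C, which starts the chains, and UBE2S, which lengthens them. Oocytes of these stages live largely on stored maternal RNA. The labels give polyA RNA as the material, so that a shorter poly(A) tail and less RNA cannot be told apart in these data.

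Each of the 15 libraries came from 15 oocytes pooled from cumulus oocyte complexes of pig ovarian follicles. GV oocytes (germinal vesicle stage) were taken from fresh follicles without culture. MII oocytes (metaphase II) and ‘damaged’ oocytes were both matured in vitro for 44 h, and they differed in the first polar body, which was seen in MII and not in ‘damaged’ oocytes. Oocytes of all groups were stripped of cumulus cells with hyaluronidase. The labels give no strain, age or donor animal, and the ovaries came from an abattoir, and how many sows contributed to a library is not given in the sources used here. The ‘damaged’ group is defined by the missing polar body alone, so the stage its oocytes had reached is not known. In pooled oocytes, fewer oocytes with a transcript and less of it per oocyte cannot be told apart.

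The library totals lay between 11.96 and 23.6 M estimated counts, apart from GV replicate 3 with 6.40 M, which was left out. Values below are thus from 4 GV (replicates 1, 2, 4 and 5), 5 MII and 5 ‘damaged’ libraries. All 12 oocyte markers listed, such as *ZP3* and *GDF9*, were above 0 in every library. Of the 12 markers of cumulus and granulosa cells, 9 were found. Over all 15 libraries, GV replicate 3 included, their levels summed to at most 6.65 CPM. The oocyte markers summed to at least 7693 CPM, the lowest sum being that of GV replicate 3. Of these lists, 1 oocyte marker rose and 7 fell in MII against GV (28.2% and 34.2% of all genes). In ‘damaged’ oocytes 1 rose and 8 fell (28.0% and 33.4% of all genes). Of the 2 cumulus markers that passed the filter, *PTGS2* rose in both, at low levels. It had 0.678 ± 0.280 CPM in GV, 1.57 ± 0.284 in MII and 1.61 ± 0.347 in ‘damaged’ oocytes. Without the scaling described next, its log2 fold changes were 0.33 and 0.42. CPM are counts relative to a common library total, here scaled with TMM factors, which correct the library size for differences in composition. These factors were 1.35 to 1.73 in GV and 0.794 to 0.922 in MII and ‘damaged’ libraries, so the scaling bears on each comparison with GV. Without the factors, the median of all genes tested moved, on the log2 scale, from -0.17 to -1.09 for MII and from -0.14 to -1.01 for ‘damaged’ against GV. Values on library sizes are therefore given beside many of the results. They are left out beside the falls of the E1 and E2 genes, all of which were also called there. Because 7 of the 15 gene table columns carry the total of a differently named library, which library is MII and which is ‘damaged’ rests on how the transcript files are labelled.

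The E2 pool was dominated by a few genes at each stage. Per length, as TPM (transcript abundance relative to a common total), the 30 E2 genes with counts summed to 6441 ± 332 TPM in GV (mean ± SD, n = 4), 6275 ± 598 in MII (n = 5) and 6326 ± 807 in ‘damaged’ oocytes (n = 5). The ranges of the groups overlapped. *UBE2C*, *UBE2V2* and *UBE2D3*, the 3 highest genes of each group, together held 63.9% ± 4.25 of this sum in GV, 75.1% ± 0.780 in MII and 74.6% ± 1.43 in ‘damaged’ oocytes. The share of *UBE2C* was 27.8 to 31.4% over the GV libraries, 13.3 to 31.8% over the MII and 21.0 to 35.1% over the ‘damaged’ libraries. *UBE2V2*, a cofactor without an active cysteine, held 15.9 to 23.3% in GV, 24.8 to 35.4% in MII and 22.02 to 32.1% in ‘damaged’ libraries. For *UBE2D3*, the corresponding shares were 14.01 to 16.3%, 17.5 to 25.8% and 19.0 to 22.9%. The GV shares of *UBE2D3* thus lay below those of each cultured library, those of *UBE2V2* below each MII library but not each ‘damaged’ library, and those of *UBE2C* overlapped with both groups. On this scale the leading gene was *UBE2C* in GV (1875 ± 201 TPM), ahead of *UBE2V2* (1278 ± 278) and *UBE2D3* (974 ± 42.5). In MII oocytes, *UBE2V2* (1896 ± 122 TPM) led *UBE2D3* (1406 ± 103) and *UBE2C* (1406 ± 559.6), and the latter pair did not differ beyond their spread. TPM carry no TMM factor, so that the mean of *UBE2C* was lower in MII than in GV on this scale and higher in TMM-scaled CPM. At the low end were *UBE2Z*, *UBE2D4*, *UBE2L6*, *UBE2J1* and *UBE2O*, with 0.767 to 4.64 TPM in GV and 0.0636 to 0.283 TPM in MII oocytes.

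**Figure D1:**
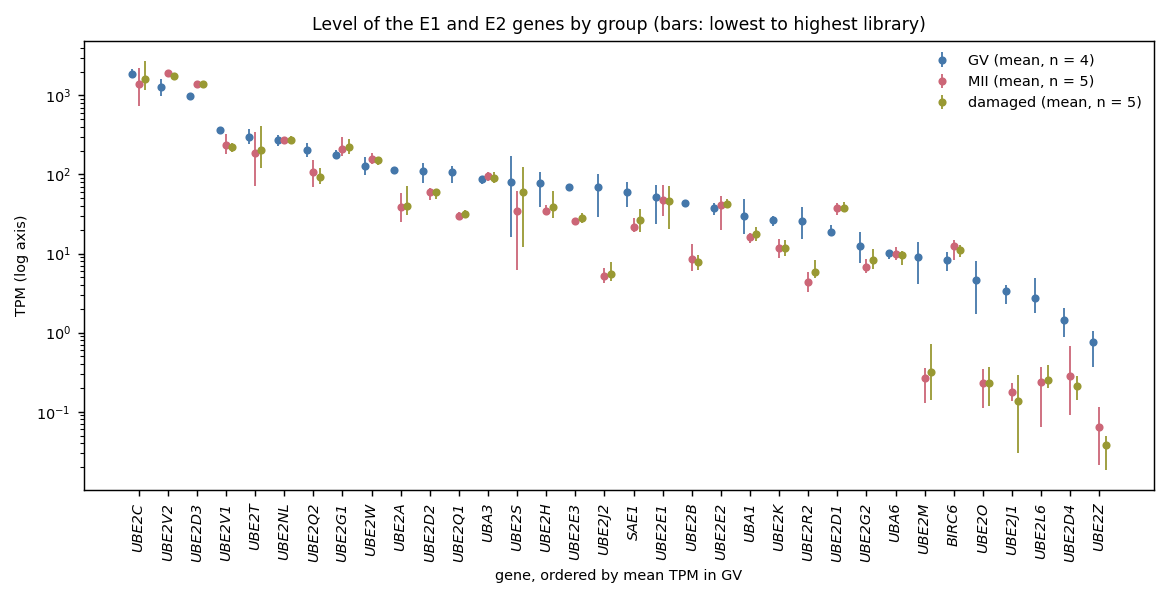
Level of each of the 34 genes in TPM on a log axis, ordered by the mean in GV, with the mean of 4 GV, 5 MII and 5 ‘damaged’ libraries as points and bars from the lowest to the highest library. The MII and ‘damaged’ bars overlap for every gene, and *UBE2J2*, *UBE2B*, *UBE2M*, *UBE2O*, *UBE2J1* and *UBE2L6* are among those whose GV bar stands above both.

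The first comparison asks which of these genes differ between GV oocytes and oocytes that reached MII. All MII and ‘damaged’ libraries were cultured and no GV library was. Maturation and culture therefore cannot be told apart in the comparisons with GV. With limma-voom over all 13215 genes tested, 10 of the 34 genes rose and 10 fell at an FDR under 0.01, that is 29.4% of the genes in each direction. Over all genes, 28.2% rose and 34.2% fell. The shares of the ubiquitin genes were thus near those of the background, and the count in itself is no result about them. Their median log2 fold change was 0.14, against -0.17 over all genes, and -0.78 against -1.09 on library sizes. In addition to the FDR, the study asked for an absolute log2 fold change over 2 for a differentially expressed gene (DEG). By that rule, *UBE2D1* was an upregulated DEG, against 4.51% of all genes, and *UBE2M*, *UBE2O*, *UBE2J1*, *UBE2J2*, *UBE2Z* and *UBE2L6* were downregulated DEGs, 17.6% of the members against 17.0% of all genes. *UBE2M*, *UBE2J1*, *UBE2Z* and *UBE2L6*, and *UBE2D4* among the other falls, passed the filter on low counts only through the GV libraries. Such a gene could hardly be called other than lower, here and in ‘damaged’ oocytes, so its call is no independent support for a fall. The MII libraries lay above each GV library in 9 members and below each GV library in 9 (27.0% and 33.0% of all genes).

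The second comparison asks the same of ‘damaged’ oocytes and uses the same GV libraries. Here 10 of the 34 genes rose (28.0% of all genes) and 10 fell (33.4% of all genes). Upregulated DEGs numbered 0 among the members (4.09% of all genes), and the downregulated DEGs were 6 (16.4% of all genes), by name *UBE2M*, *UBE2J1*, *UBE2O*, *UBE2Z*, *UBE2J2* and *UBE2L6*. The ‘damaged’ and GV libraries were apart in 10 members upwards and 10 downwards (26.6% and 31.8% of all genes). Because both comparisons share the GV libraries, the values of each are given side by side below.

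**Figure D2:**
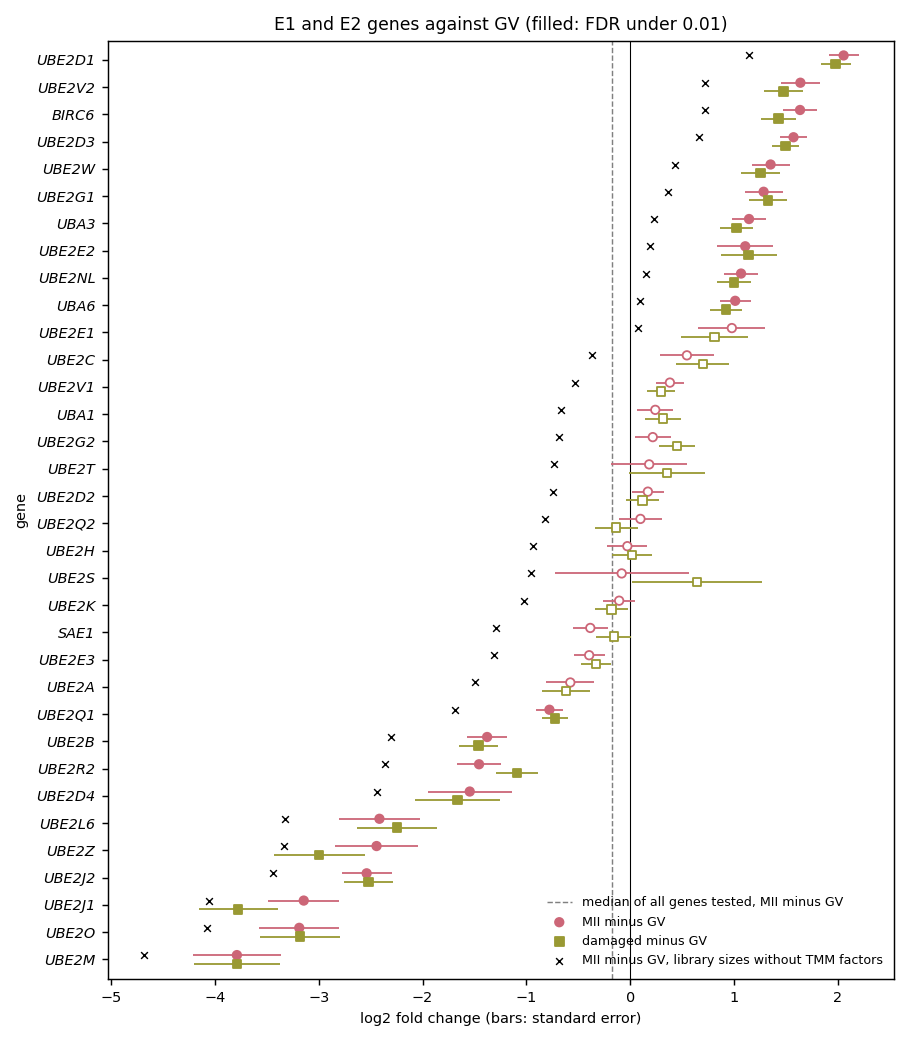
Log2 fold change of the 34 genes in MII (circles) and ‘damaged’ oocytes (squares) against GV with TMM factors, with the standard error as bars, filled at an FDR under 0.01. Crosses give MII against GV on library sizes and the dashed line the median over all genes for MII (-0.17). The crosses lie to the left of the circles for each gene, below 0 for *UBE2C* and above 0 for *UBE2D1*.

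Scaling decided how many of the rises were called. Over all genes, rises made up 45.2% of the calls in MII with TMM factors and 15.98% on library sizes, and 45.6% and 16.6% in ‘damaged’ oocytes. On library sizes, *UBE2D1*, *UBE2D3*, *UBE2V2* and *BIRC6* still rose in MII and in ‘damaged’ oocytes. *UBE2W*, *UBE2G1*, *UBA3*, *UBA6*, *UBE2E2* and *UBE2NL* kept a positive log2 fold change there without passing the FDR. All 10 falls were also called on library sizes in both comparisons, where further members were called lower, for a total of 20 in MII and 18 in ‘damaged’ oocytes.

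Among the E1 enzymes, the 2 that serve NEDD8 and the alternative ubiquitin relay rose, and the main ubiquitin E1 did not pass the test. *UBA1* (ENSSSCG00000012270, chromosome X, 41810726 to 41832818), which charges most E2s with ubiquitin, had 31.8, 42.3, 35.4 and 61.9 CPM in GV replicates 1, 2, 4 and 5. In MII replicates 1 to 5 it had 52.8, 53.0, 51.3, 48.7 and 41.8 CPM, and in the ‘damaged’ libraries 57.0, 47.7, 42.7, 57.0 and 56.4 CPM. The groups overlapped, since GV replicate 5 held the highest value of all. For *UBA1*, the fitted change was 0.24 (95% interval -0.12 to 0.61, FDR 0.216) in MII and 0.32 (-0.045 to 0.68, FDR 0.109) in ‘damaged’ oocytes. On library sizes it was -0.67 (FDR 0.00657) and -0.55 (FDR 0.0201), so that its direction depends on the scaling. *UBA1* was thus called lower in MII on library sizes. Without GV replicate 5, *UBA1* passed the FDR in ‘damaged’ oocytes with 0.52 (FDR 0.00564).

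*UBA6* (ENSSSCG00000008924, chromosome 8, 65381058 to 65470829) is a second E1 for ubiquitin that charges few E2s, among them UBE2Z. Its levels were 25.5, 17.9, 25.5 and 20.3 CPM in GV, 42.7, 47.1, 49.6, 46.0 and 37.9 CPM in MII and 34.7, 44.9, 40.7, 48.0 and 41.7 CPM in ‘damaged’ libraries. Every cultured library was above every GV library, and *UBA6* rose by 1.01 (SE 0.15, FDR 5.88e-06) in MII and by 0.92 (SE 0.15, FDR 1.87e-05) in ‘damaged’ oocytes on the log2 scale. On library sizes the values were 0.093 and 0.046 and did not pass the test.

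*UBA3* (ENSSSCG00000011506, chromosome 13, 50479264 to 50504901), the catalytic subunit of the NEDD8 E1, had 97.0, 69.8, 76.0 and 52.2 CPM in GV. It had 145, 148, 164, 157 and 183 CPM in MII and 163, 142, 178, 128 and 127 CPM in ‘damaged’ libraries, again above each GV library. This was a log2 fold change of 1.15 (SE 0.16, FDR 2.76e-06) in MII and 1.03 (SE 0.16, FDR 1.11e-05) in ‘damaged’ oocytes, and 0.23 and 0.15 on library sizes, without passing the FDR there.

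*SAE1* (ENSSSCG00000003111, chromosome 6, 52957474 to 53027138) encodes the smaller subunit of the SUMO E1. Its levels were 36.5, 46.9, 46.1 and 51.8 CPM in GV, 30.5, 34.7, 40.9, 31.6 and 35.5 CPM in MII and 33.9, 30.3, 53.0, 39.5 and 48.7 CPM in ‘damaged’ libraries. The GV and cultured libraries overlapped. A fitted change of -0.38 in MII (95% interval -0.74 to -0.031, FDR 0.0482) and of -0.16 in ‘damaged’ oocytes (-0.51 to 0.19, FDR 0.408) did not pass the test, whereas on library sizes *SAE1* was called lower in both, with -1.30 and -1.03. In MII, *SAE1* was also called lower with library weights (-0.46, FDR 0.00831) and a filter of 10 CPM (-0.71, FDR 0.000924).

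Neither E2 of the APC/C passed the test in the main fit, but each was called in some alternatives. *UBE2C* (ENSSSCG00000007423, chromosome 17, 48018403 to 48021542) had 729, 468, 514 and 394 CPM in GV replicates 1, 2, 4 and 5. It had 434, 655, 1153, 802 and 885 CPM in the MII and 774, 803, 1480.1, 651 and 666 CPM in the ‘damaged’ libraries. MII replicates 1 and 2 and ‘damaged’ replicates 4 and 5 lay below GV replicate 1, and the other cultured libraries lay above all GV libraries. The means were 526 ± 144 CPM in GV (SD, n = 4), 786 ± 267 CPM in MII (n = 5) and 875 ± 345 CPM in ‘damaged’ oocytes (n = 5). On the log2 scale, the fold change was 0.55 in MII (95% interval 0.010 to 1.08, FDR 0.0631) and 0.70 in ‘damaged’ oocytes (0.16 to 1.24, FDR 0.0200). On library sizes it was -0.37 (FDR 0.187) and -0.17 (FDR 0.535), so that the direction of *UBE2C* depended on the scaling. Without GV replicate 1, *UBE2C* was called higher in ‘damaged’ oocytes, by 0.89 (FDR 0.00569). The same call was made with all 5 GV libraries (0.81, FDR 0.00909), DESeq2 (0.77) and library weights (0.67). In MII, *UBE2C* was called higher with the 8 libraries of matching columns (1.09), an alternative added after seeing the data. Between MII and ‘damaged’ oocytes the difference was -0.15 (95% interval -0.66 to 0.35).

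*UBE2S* (ENSSSCG00000035344, chromosome 6, 59565001 to 59570484) had the largest ratio of the highest to the lowest library among the 34 genes in GV and in MII. Its levels were 9.998, 34.1, 30.7 and 70.7 CPM in GV, 36.4, 66.8, 5.87, 46.2 and 25.1 CPM in MII and 46.0, 46.1, 12.1, 79.7 and 107 CPM in ‘damaged’ libraries. The highest and lowest library differed 7.07-fold within GV, 11.4-fold within MII and 8.89-fold within ‘damaged’ oocytes, and the 3 groups overlapped. *UBE2S* had a log2 fold change of -0.081 in MII (95% interval -1.43 to 1.27, FDR 0.915) and 0.64 in ‘damaged’ oocytes (-0.66 to 1.95, FDR 0.367). These intervals allow a change of more than 2-fold in either direction for MII. On library sizes the values were -0.96 (FDR 0.208) in MII and -0.22 (FDR 0.772) in ‘damaged’ oocytes. Between MII and ‘damaged’ oocytes, *UBE2S* had the largest difference of the 34 genes, -0.72 (95% interval -1.99 to 0.55), which did not pass the test. Without MII replicate 3 the value for MII against GV was 0.46, and without GV replicate 5 it was 0.36, neither past the FDR. With the replicate block, *UBE2S* was called higher in ‘damaged’ oocytes, by 1.11 (FDR 0.00957).

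In each group, the library with the least *UBE2S* had the most *UBE2C*. These libraries were GV replicate 1, MII replicate 3 and ‘damaged’ replicate 3. They also held the most *UBE2T*, an E2 that works with the Fanconi anaemia ligase FANCL, with 173 CPM in GV replicate 1, 245 CPM in MII replicate 3 and 307 CPM in ‘damaged’ replicate 3. *UBE2A* (93.9, 78.9 and 103 CPM in the same order) and *UBE2V1* (367, 540 and 439 CPM) were highest in these libraries as well, and *UBE2H* (99.2, 128 and 117 CPM) was lowest. The ordering is thus not particular to *UBE2S*, *UBE2C* and *UBE2T*. With 4 or 5 libraries a group, no correlation was computed. GV replicate 1 (14.5 M counts) and ‘damaged’ replicate 3 (19.6 M) were also the deepest libraries of their groups, while MII replicate 3 (14.7 M) was not. The part of depth or other library differences in the values of *UBE2S* and *UBE2C* was not tested.

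**Figure D3:**
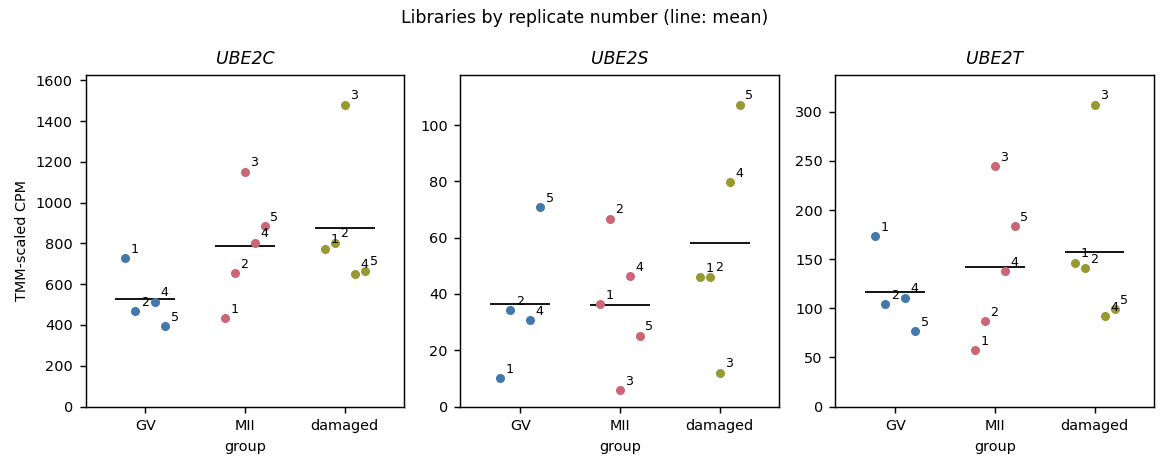
TMM-scaled CPM of *UBE2C*, *UBE2S* and *UBE2T* in each of 4 GV, 5 MII and 5 ‘damaged’ libraries, with the replicate number beside each point and the mean as a line. The library with the lowest *UBE2S* in a group (GV replicate 1 at 9.998 CPM, MII replicate 3 at 5.87 CPM, ‘damaged’ replicate 3 at 12.1 CPM) is the highest for the other genes.

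The UBE2D and UBE2E families work with many E3 ligases. Of their 7 genes, *UBE2D1*, *UBE2D3* and *UBE2E2* rose in MII and *UBE2D4* fell, and the same 4 calls were made in ‘damaged’ oocytes. *UBE2D1* (ENSSSCG00000033323, chromosome 14, 92296314 to 92330432) had 22.9, 17.7, 21.0 and 21.0 CPM in GV, 85.1, 72.6, 88.7, 91.7 and 91.7 CPM in MII and 80.9, 88.2, 97.6, 76.4 and 66.8 CPM in ‘damaged’ libraries. All 10 cultured libraries were far above the GV libraries. It was the largest rise among the E2s, with log2 fold changes of 2.06 (SE 0.14, FDR 2.27e-10) in MII and 1.98 (SE 0.14, FDR 4.07e-10) in ‘damaged’ oocytes, that is 4.16-fold and 3.95-fold. On library sizes the rise was 1.14 and 1.11, under the study's fold limit.

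*UBE2D3* (ENSSSCG00000035622, chromosome 8, 118218224 to 118229002), the most abundant member of the family, had 1828, 1497, 1567 and 1186 CPM in GV. It reached 4706, 4988, 3573, 4833 and 4405 CPM in MII and 4469.8, 4511, 4493, 3977 and 3795 CPM in ‘damaged’ libraries. The lowest cultured library, MII replicate 3, was well above the highest GV library. *UBE2D3* thus rose on the log2 scale by 1.57 (SE 0.13, FDR 3.00e-09) in MII and 1.497 (SE 0.13, FDR 6.20e-09) in ‘damaged’ oocytes, and 0.66 and 0.62 on library sizes.

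Their close relative *UBE2D2* did not pass the test (0.17 in MII, 95% interval -0.16 to 0.50, and 0.12 in ‘damaged’ oocytes). *UBE2D4* was scarce, at 1.17 to 2.13 CPM in GV and 0.212 to 1.64 CPM in MII libraries, which overlapped through MII replicate 1, and it fell by 1.55 in MII and by 1.66 in ‘damaged’ oocytes on the log2 scale. With DESeq2 the fall of *UBE2D4* in MII was not called. Coding sequences of the UBE2D genes are close, and Kallisto splits reads that fit more than one of them, so that part of the levels may be exchanged between them. In the UBE2E family, *UBE2E2* rose by 1.11 (SE 0.27) in MII and 1.14 (SE 0.27) in ‘damaged’ oocytes. In both comparisons, *UBE2E2* was not called with a filter of 10 CPM, with the 8 libraries of matching columns or on library sizes. *UBE2E1* just missed the threshold in MII (0.98, FDR 0.0107), and *UBE2E3* had -0.39 (FDR 0.0235). *UBE2E1* was called higher in MII with edgeR, DESeq2, library weights, no filter or summed transcript counts. It was also called higher in ‘damaged’ oocytes with DESeq2, in MII without GV replicate 2 or 5, MII replicate 5, or ‘damaged’ replicate 2, 3 or 5, and in ‘damaged’ oocytes without ‘damaged’ replicate 3.

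K63-linked chains, which signal in DNA repair and inflammation rather than leading to the proteasome, are built by UBE2N with UBE2V1 or UBE2V2. *UBE2V2* (ENSSSCG00000022190, chromosome 4, 79621343 to 79652502) had 677, 371, 487 and 281 CPM in GV, 1439, 1379.6, 1124, 1343 and 1451 CPM in MII and 1438, 1271, 1161, 1155 and 1005 CPM in ‘damaged’ libraries. The GV libraries spread over more than 2-fold, and still lay below each cultured library. *UBE2V2* rose by 1.64 (SE 0.19, FDR 1.67e-07) in MII and by 1.48 (SE 0.19, FDR 7.15e-07) in ‘damaged’ oocytes on the log2 scale, and by 0.72 and 0.60 on library sizes. *UBE2V1* did not pass the test, with 0.38 (95% interval 0.10 to 0.66, FDR 0.0153) in MII and 0.30 (0.015 to 0.58) in ‘damaged’ oocytes, and was called lower on library sizes, with -0.53 and -0.58. With DESeq2, library weights or no filter, and without GV replicate 1, MII replicate 1 or ‘damaged’ replicate 5, *UBE2V1* was called higher in MII. The gene that the name table calls *UBE2NL* (ENSSSCG00000000908, no position in the annotation used) rose by 1.07 (SE 0.16) and 1.00 (SE 0.16), from 588 to 1133 CPM in GV to 1577 to 1769 CPM in MII and 1239 to 1794 CPM in ‘damaged’ libraries. Whether reads of *UBE2N* are counted in it was not tested.

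The RAD6 enzymes UBE2A and UBE2B, which ubiquitinate PCNA and histone H2B, had unlike values. *UBE2B* fell by 1.38 (SE 0.19, FDR 2.16e-06) in MII and by 1.46 (SE 0.19, FDR 1.10e-06) in ‘damaged’ oocytes on the log2 scale, from 26.7 to 36.9 CPM in GV to 8.86 to 17.3 CPM in MII. *UBE2A* had -0.58 (95% interval -1.06 to -0.090, FDR 0.0328) and -0.62 (-1.105 to -0.13, FDR 0.0232), neither past the test. *UBE2A* was called lower in both comparisons without ‘damaged’ replicate 3, with library weights, with a filter of 10 CPM or on library sizes. The difference between *UBE2A* and *UBE2B* was not itself tested. *UBE2T* had 0.18 (95% interval -0.58 to 0.95) and 0.35 (-0.41 to 1.11) and was not called.

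The E2s of endoplasmic reticulum-associated degradation moved in opposite directions: *UBE2J1* and *UBE2J2*, which are anchored in the ER membrane, fell, and *UBE2G1* rose. *UBE2J1* (ENSSSCG00000004317, chromosome 1, 57340622 to 57364263) had 5.27, 5.99, 7.33 and 6.28 CPM in GV. In the MII libraries it had 0.831, 0.552, 0.562, 0.897 and 0.547 CPM and in the ‘damaged’ libraries 0.532, 0.507, 1.08, 0.383 and 0.0957 CPM, from 7.25 to 16.9 and 1.42 to 17.7 counts. No cultured library came near a GV library. Its log2 fold change was -3.15 (SE 0.34, FDR 9.65e-08) in MII and -3.78 (SE 0.38, FDR 3.25e-08) in ‘damaged’ oocytes.

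*UBE2J2* (ENSSSCG00000003334, chromosome 6, 63556134 to 63568080) was more abundant, with 23.6, 52.3, 44.7 and 56.5 CPM in GV. It had 9.25, 6.13, 6.63, 8.56 and 6.14 CPM in MII and 6.95, 7.91, 6.06, 6.87 and 9.18 CPM in ‘damaged’ libraries, each below the lowest GV library. It fell 5.81-fold in MII (log2 fold change -2.54, SE 0.24, FDR 1.34e-08) and 5.75-fold in ‘damaged’ oocytes (-2.52, SE 0.24). *UBE2G1*, a soluble relative of UBE2G2, rose by 1.29 (SE 0.18) and 1.33 (SE 0.18) on the log2 scale, or 0.37 and 0.45 on library sizes, where it was not called. *UBE2G2* had 0.22 (95% interval -0.15 to 0.58) and 0.45 (0.094 to 0.81) and was not called. It was called higher in ‘damaged’ oocytes without GV replicate 5, and lower in MII on library sizes (-0.69, FDR 0.00571).

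Both analysed E2s of ubiquitin-like proteins fell, and both passed the filter on low counts only through the GV libraries. *UBE2M* (ENSSSCG00000037734, chromosome 6, 63105532 to 63108615), the main NEDD8 E2, which acts on cullins, had 3.42, 7.39, 4.61 and 7.91 CPM in GV. The MII libraries held 0.187, 0.451, 0.457, 0.472 and 0.307 CPM and the ‘damaged’ libraries 0.301, 0.451, 0.300, 0.190 and 0.862 CPM, from 1.98 to 8.90 and 2.95 to 12.8 counts. All GV libraries were above all cultured libraries. Its log2 fold change of -3.79 in MII (SE 0.42, FDR 1.27e-07) and -3.79 in ‘damaged’ oocytes (SE 0.42, FDR 1.10e-07) was a 13.8-fold fall in both. In MII it was the largest fitted fall of the 34 genes, and in ‘damaged’ oocytes it was close to that of *UBE2J1* (-3.78). *UBE2M* thus fell while *UBA3*, of the E1 that charges it, rose with TMM factors. *UBE2L6*, the E2 of ISG15, fell by 2.42 (SE 0.39) and 2.25 (SE 0.38) on the log2 scale, from 1.70 to 3.54 CPM in GV to 0.117 to 0.594 CPM in MII.

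Among the other ubiquitin E2s, *UBE2W* rose and *UBE2Z*, *UBE2R2* and *UBE2Q1* fell. *UBE2W* (ENSSSCG00000006177, chromosome 4, 62046568 to 62084679), which attaches ubiquitin to the amino terminus of proteins, had 381, 199, 262 and 155 CPM in GV, 609, 555, 652, 669 and 535 CPM in MII and 529, 639, 547, 585 and 522 CPM in ‘damaged’ libraries. The GV libraries stayed below each cultured library. Fitted log2 fold changes were 1.35 (SE 0.18, FDR 1.80e-06) in MII and 1.26 (SE 0.18, FDR 4.78e-06) in ‘damaged’ oocytes, and 0.43 (FDR 0.0128) and 0.38 (FDR 0.0280) on library sizes.

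*UBE2Z* (ENSSSCG00000025638, chromosome 12, 25122072 to 25141144), an E2 charged by UBA6, was the scarcest member. It had 0.867, 1.72, 1.44 and 1.68 CPM in GV, 0.468, 0.225, 0.0762, 0.210 and 0.307 CPM in MII and 0.150, 0.0752, 0.180, 0.190 and 0.133 CPM in ‘damaged’ libraries, which rest on 0.984 to 4.95 and 0.990 to 2.97 counts a library. Each cultured library was below each GV library. *UBE2Z* fell, with log2 fold changes of -2.44 (SE 0.40, FDR 2.00e-05) and -3.00 (SE 0.44, FDR 4.62e-06). From counts summed over libraries, 121 in GV, 18 in MII and 11 in ‘damaged’ oocytes, GV had 5.79 times the level of MII (95% interval 3.47 to 9.97, exact binomial, counting error only) and 9.71 times that of ‘damaged’ oocytes (5.16 to 19.7). Amplified reads are not independent molecules, so this interval is too narrow. *UBE2R2*, an E2 of cullin ligases, fell by 1.46 (SE 0.21) in MII and 1.09 (SE 0.20) in ‘damaged’ oocytes, and *UBE2Q1* fell by 0.78 (SE 0.13) and 0.73 (SE 0.13) on the log2 scale. *UBE2H*, *UBE2K* and *UBE2Q2* had log2 fold changes between -0.18 and 0.10 in the 2 comparisons and were not called, but each was called lower on library sizes. *UBE2D2* and *UBE2E3* were also called lower in both comparisons on library sizes. With a filter of 10 CPM, *UBE2E3* was called lower in both and *UBE2K* in ‘damaged’ oocytes.

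The E2/E3 hybrids, large proteins that carry out both steps, split. *BIRC6* (ENSSSCG00000008513, chromosome 3, 107012967 to 107269370), also an inhibitor of apoptosis charged by UBA6, had 49.6, 55.2, 51.7 and 58.7 CPM in GV. It had 196, 211, 149, 185 and 115 CPM in MII and 132, 165, 119, 166 and 148 CPM in ‘damaged’ libraries, all above the highest GV library. It rose by 1.64 (SE 0.17, FDR 4.22e-08) in MII and 1.43 (SE 0.17, FDR 2.84e-07) in ‘damaged’ oocytes on the log2 scale, and by 0.72 and 0.56 on library sizes. *UBE2O* (ENSSSCG00000029901, chromosome 12, 5055091 to 5114127), which marks unassembled ribosomal proteins and globins for destruction, had 6.03, 14.4, 10.3 and 19.5 CPM in GV. In MII it had 2.12, 1.30, 1.40, 1.30 and 0.668 CPM and in ‘damaged’ oocytes 1.31, 1.00, 1.73, 0.689 and 1.85 CPM. All values after culture were below the lowest GV value. The log2 fold change was -3.19 (SE 0.38, FDR 3.76e-07) and -3.18 (SE 0.38, FDR 3.90e-07).

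**Figure D4:**
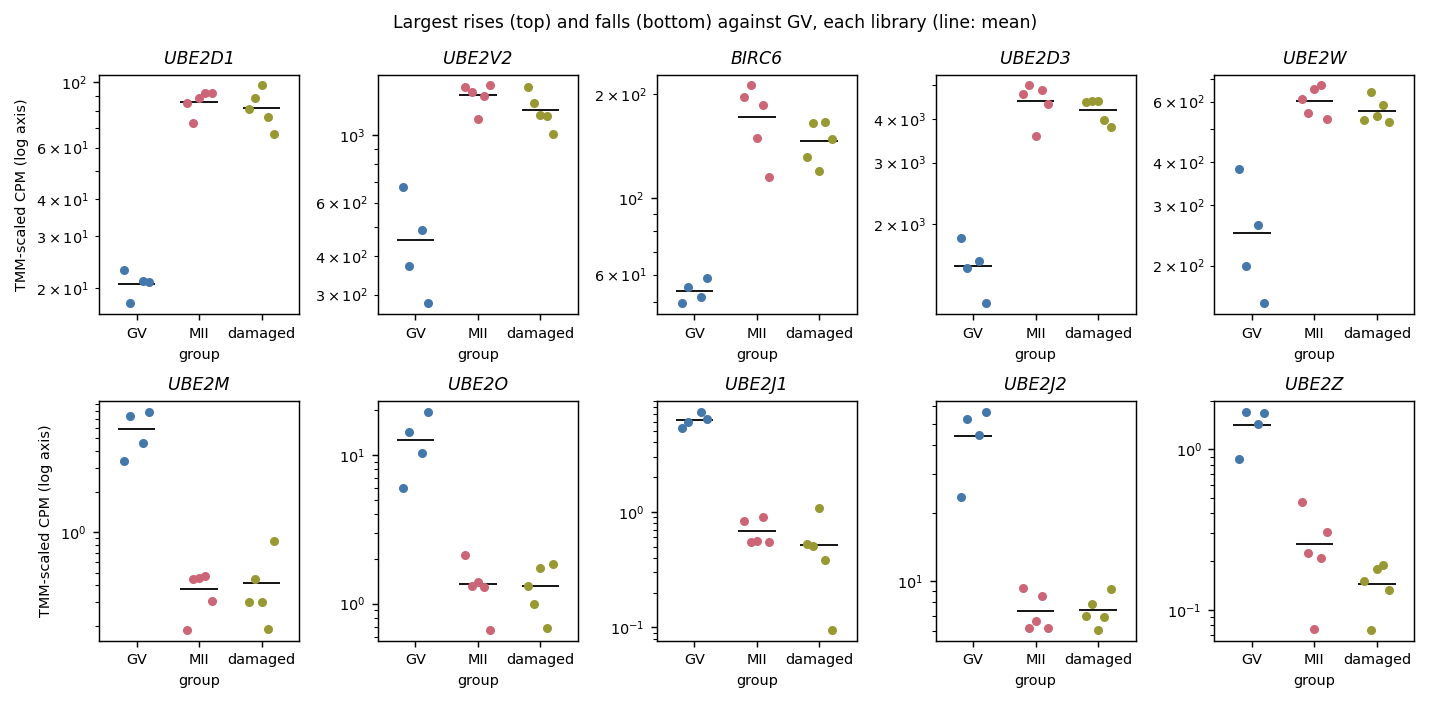
TMM-scaled CPM on log axes of the 5 largest rises (*UBE2D1*, *UBE2V2*, *BIRC6*, *UBE2D3*, *UBE2W*) and the 5 largest falls (*UBE2M*, *UBE2O*, *UBE2J1*, *UBE2J2*, *UBE2Z*) in each library, with the mean as a line. In all 10 panels the 4 GV points are apart from the 10 cultured points, while MII and ‘damaged’ points overlap.

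The third comparison asks whether oocytes with and without a polar body differ in these genes after the same culture. Of the 34 genes, 0 were called, as were 0% of all genes tested by limma-voom, edgeR or DESeq2. An unadjusted p under 0.05 was found for 0 of the 34 and for 194 of all 13215 genes by limma-voom, for 272 by edgeR and for 254 by DESeq2. The groups overlapped in all 34 genes, while MII lay above ‘damaged’ in 0.0984% and below it in 0.174% of all genes. Log2 differences (MII minus ‘damaged’) ran from -0.72 for *UBE2S* to 0.63 for *UBE2J1*, and 30 of the 34 were under 0.25 in size. For 28 genes the 95% interval lay within a log2 difference of 1 in either direction, that is within 2-fold. For *UBE2D4*, *UBE2J1*, *UBE2L6*, *UBE2M*, *UBE2S* and *UBE2Z* it reached beyond, so that the data allow a 2-fold difference there. Among the abundant genes the intervals were -0.18 to 0.34 for *UBE2D3*, -0.20 to 0.53 for *UBE2V2* and -0.42 to 0.27 for *UBA1*. In the 8 libraries whose gene table column carries their own name, 0 of the 34 genes and 0 of all genes were called as well, an alternative chosen after seeing the data.

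Isoform usage was compared as the share of a transcript in the TPM of its gene. Of 62 transcripts in the 22 members with 2 or more transcripts tested, 10 in 7 genes changed between MII and GV (FDR under 0.01 by limma's diffSplice and a change of the share over 10 percentage points), against 25.6% of the 14540 transcripts tested in all. Between ‘damaged’ and GV oocytes 15 changed, in 9 genes (25.2% of all transcripts). Of all genes tested in this way, 37.6% had a called transcript in MII and 37.3% in ‘damaged’ oocytes. Genes with a call in ‘damaged’ oocytes only are not named below. Between MII and ‘damaged’ oocytes 0 of 62 and 0% of all were called, with an unadjusted p under 0.05 for 2 and 609 of them. With a different isoform tool, the study reported changed usage for *RAB4B* and *DTNBP1* in this comparison. Neither gene is a member here. Transcript shares are estimates, because single-end reads often fit several transcripts of a gene. The number of member transcripts called for MII was 5 without GV replicate 2 and 6 without MII replicate 4. For ‘damaged’ oocytes it was 9 without GV replicate 2, 8 without ‘damaged’ replicate 4 and 9 without ‘damaged’ replicate 5.

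*UBA6* exchanged minor transcripts, while its main transcript was not called. The main one, ENSSSCT00000009772.3 (5418 bases), held 69.2% ± 6.14 of the gene's TPM in GV (SD, n = 4). It held 72.0% ± 9.24 in MII and 72.9% ± 9.05 in ‘damaged’ oocytes (n = 5 each). Its share changed by 2.88 and 3.76 percentage points, under the limit of 10. ENSSSCT00000009773.3 (6522 bases) held 25.7, 8.99, 10.7 and 11.4% of the gene's TPM in the GV libraries (FDR 2.17e-06) and was at 0 in each of the 10 cultured libraries. A count of 0 allows 3 counts, or at most 0.351 to 0.686% of the gene's counts in one of these libraries, counting error only. ENSSSCT00000064147.3 (4104 bases) had 1.06, 0, 0 and 0% in GV, 25.9, 12.9, 39.2, 19.5 and 25.4% in MII and 6.50, 30.4, 23.8, 27.5 and 30.6% in ‘damaged’ libraries (FDR 7.13e-05 for MII and 7.11e-05 for ‘damaged’). The GV libraries lay below every cultured library.

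In *UBE2H*, an E2 of the CTLH ligase whose gene level did not pass the test, the transcript with the highest mean share changed. ENSSSCT00000073903.2 (4871 bases) went from 77.4% ± 13.0 in GV (SD, n = 4) to 39.2% ± 24.3 in MII and 37.4% ± 28.8 in ‘damaged’ oocytes (n = 5 each, FDR 0.00505 and 0.00238). ENSSSCT00000058406.2 (5077 bases) went from 20.7% ± 11.5 to 58.6% ± 22.7 and 61.7% ± 28.2 (FDR 0.00357 and 0.00175). MII replicate 3 and ‘damaged’ replicate 3 had shares within the GV range. ENSSSCT00000073903.2 still led in these libraries, in MII replicate 5 (58.1% against 41.5%) and in ‘damaged’ replicate 1 (51.4% against 48.6%). In the other cultured libraries ENSSSCT00000058406.2 led. In *UBE2O*, ENSSSCT00000032146.3 (5187 bases) went from 88.7% ± 7.58 to 22.1% ± 22.5 and 10.2% ± 15.8, and ENSSSCT00000066674.2 (8146 bases) from 10.9% ± 7.86 to 77.9% ± 22.5 and 78.5% ± 15.1 (FDR 0.000524 for MII). The counts of the longer transcript were 20.6 to 31.7 in GV and 10.6 to 23.4 in MII, and those of the shorter one 69.0 to 325 and 0 to 6.84, so that these shares rest on few counts after culture.

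Other genes had a single transcript called in MII against GV. In *UBE2W*, the 883-base transcript ENSSSCT00000055188.3 went from 31.1% ± 14.4 in GV to 48.7% ± 2.99 in MII and 46.5% ± 7.45 in ‘damaged’ oocytes (FDR 0.00163 and 0.00431), with GV replicate 1 at 50.7%, within the range of the MII libraries. *UBE2Q2* used ENSSSCT00000067668.1 (2605 bases) less, with 42.0% ± 10.2, 22.3% ± 4.26 and 24.2% ± 4.88 (FDR 0.00296 and 0.00940). The share of this transcript was thus lower in every cultured than in every GV library. In *SAE1*, ENSSSCT00000051264.3 (1902 bases) fell from 23.2% ± 4.604 to 5.57% ± 6.88 and 2.92% ± 6.28 (FDR 0.00219 and 0.00149). In *UBE2D1*, ENSSSCT00000080543.2 (2648 bases) went from 60.8% ± 14.3 to 73.5% ± 7.79 and 75.2% ± 4.59 (FDR 0.00429 and 0.00274), and its GV and MII shares overlapped. Against GV, ‘damaged’ oocytes also had a second transcript called in *SAE1*, ENSSSCT00000003450.5 (53.2% ± 11.3 in GV and 85.4% ± 20.9 in ‘damaged’ oocytes, FDR 0.00223), and in *UBE2Q2*, ENSSSCT00000065609.3 (21.1% ± 5.82 and 41.1% ± 9.16, FDR 0.00529).

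**Figure D5:**
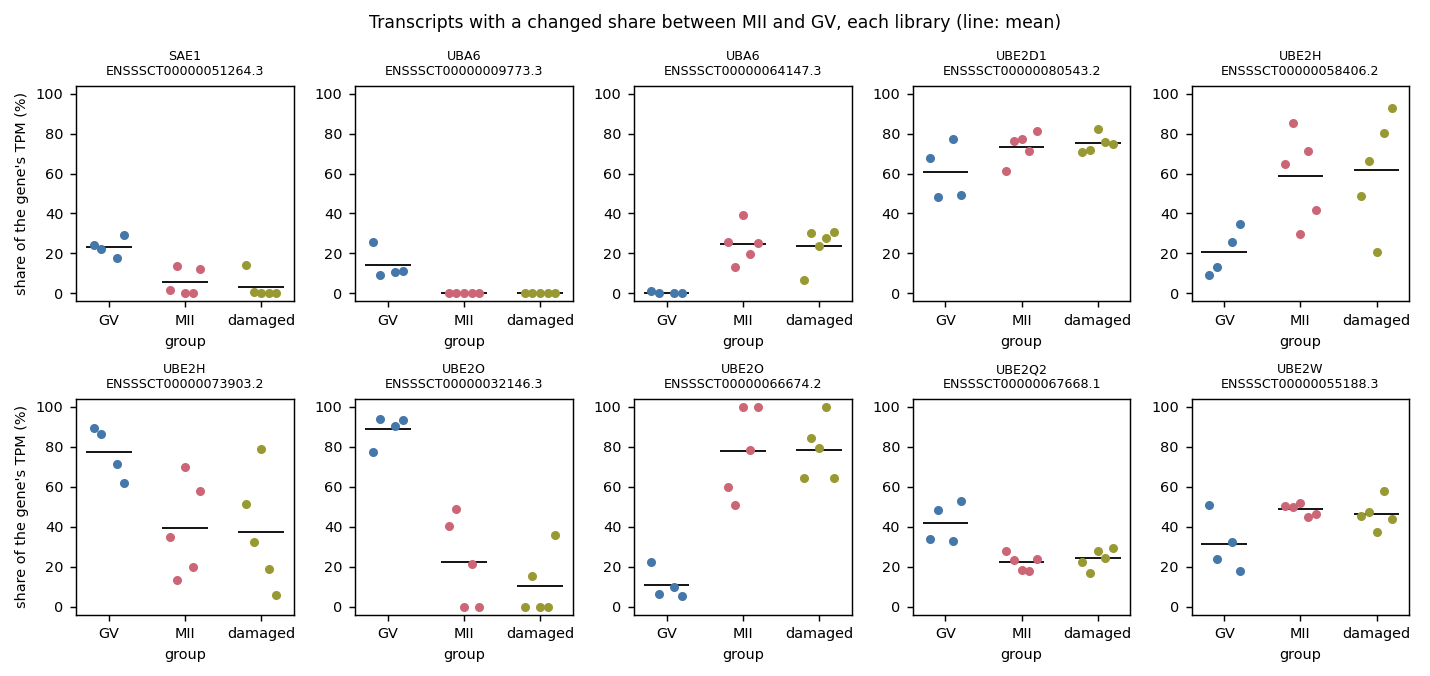
Share of the gene's TPM (in %) held by each of the 10 transcripts that changed between MII and GV, in 4 GV, 5 MII and 5 ‘damaged’ libraries, with the mean as a line. The GV and cultured points are apart for both *UBA6* and both *UBE2O* transcripts, as they are for *SAE1* and *UBE2Q2*, and overlap for *UBE2W*, *UBE2H* and *UBE2D1*.

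The partners of these enzymes gave the following counts, from lists fixed by symbol. Of 16 APC/C subunits, activators and inhibitors tested, 11 rose and 2 fell in MII (28.2% and 34.2% of all genes), with the same counts in ‘damaged’ oocytes (28.0% and 33.4%) and a median log2 fold change of 1.21 for MII (0.29 on library sizes). *CDC20*, the activator of the APC/C at anaphase, had 57.1 ± 8.47 CPM in GV, 229.8 ± 26.6 in MII and 245 ± 30.5 in ‘damaged’ oocytes, and rose by 2.02 and 2.10 on the log2 scale. The subunit gene *ANAPC15* rose by 1.87 and 1.89. *FZR1*, the activator that keeps cyclin B low in GV oocytes, went from 32.8 ± 9.48 CPM to 4.95 ± 0.831 and 5.02 ± 1.82 CPM (-2.71 and -2.73), and the subunit gene *CDC26* changed by -3.25 and -3.08. All 4 genes kept their direction on library sizes.

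Of 12 ubiquitin and ubiquitin-like modifier genes tested, 6 rose and 4 fell in MII (28.2% and 34.2% of all genes), and in ‘damaged’ oocytes likewise (28.0% and 33.4%). *ATG12*, a modifier of autophagy, rose by 1.79 in MII on the log2 scale. *URM1*, which takes part in tRNA thiolation, and *FAU*, whose product fuses a ubiquitin-like and a ribosomal protein, changed by -3.97 and -3.14. The 10 tested genes of E1-like and E2-like proteins outside the rule had 3 rises and 4 falls in MII (28.2% and 34.2% of all genes) and 4 of each in ‘damaged’ oocytes (28.0% and 33.4%), with *AKTIP* (2.49) and *UEVLD* (2.12), both E2 variants, as the largest rises in MII. The autophagy genes *ATG3* (-1.58) and *ATG7* (-1.18), an E2-like and an E1-like enzyme, had the largest falls in this list. Of 19 E3 partners tested, 10 rose and 4 fell in each comparison (28.2% and 34.2% of all genes in MII, 28.0% and 33.4% in ‘damaged’ oocytes). *RAD18*, the partner of UBE2A and UBE2B on PCNA, had 2.32 and *RNF7*, a RING protein of cullin ligases, 2.20 in MII. *RNF40*, of the histone H2B ligase, fell by 1.09 and *MAEA*, of the CTLH ligase, by 0.89. Between MII and ‘damaged’ oocytes, 0 genes of these lists were called by limma-voom, with 0 at an unadjusted p under 0.05.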

How the data were processed

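Processed files of 15 pig RNAseq libraries (5 GV, 5 MII, 5 ‘damaged’) were used. The authors cleaned reads with AfterQC and made the estimated counts and TPM per transcript with Kallisto 0.43 from the Sscrofa11.1 cDNA. The deposited gene table holds estimated counts that the authors summarised with tximport (lengthScaledTPM), without normalization. Its 7 columns that carry the total of a differently named library were not used. The other 8 columns served to match transcripts to genes, and the same formula then gave gene counts for every library, at most 0.000223% from the deposited values. Totals were 6.40 to 23.6 M counts. Intervals from counts cover counting error only.

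Genes were tested with limma 3.58.1 (voom) in R 4.3.3, after filterByExpr and TMM factors of edgeR 4.0.16, in 1 fit of 14 libraries without GV replicate 3, the shallowest, with Benjamini-Hochberg FDRs over all genes. Isoform usage was tested with diffSplice of limma, not the study's DTU tool. Both steps were tested on simulated data. Alternatives were library sizes, edgeR, DESeq2 1.42.0, library weights, other filters, all 5 GV libraries, a replicate block, summed transcript counts, only the 8 libraries with matching columns, and leaving out each library. Libraries were called replicates after the labels, and the methods describe 5 independent collections. Positions came from RefSeq (Sscrofa11.1) by symbol. Values of each library are given for *UBE2C*, *UBE2S*, the E1s, and the 5 largest rises and 5 largest falls between MII and GV. The members and lists were chosen with earlier results of these data known. Some genes of the lists are not reported here.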

Additional observations from a re-analysis of the deposited data

Results flagged for a closer look

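In 102 groups of 4 or 5 libraries tested, 5 held a library that stood apart from the others of its group, where chance flags about 1 in 20. *UBE2C* was at 1480.1 CPM in ‘damaged’ replicate 3, against 651 to 803 CPM in the other ‘damaged’ libraries. In the same library, *UBE2A* was at 103 CPM, against 39.9 to 50.6 CPM. *UBE2G1* was at 142 CPM in MII replicate 5, against 85.5 to 97.9 CPM in the other MII libraries. *UBE2L6* had 3.54 CPM in GV replicate 5, against 1.70 to 1.83 CPM in the other GV libraries. *UBE2Q2* had 192 CPM in GV replicate 4, against 232 to 239 CPM.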

How the results depend on the processing

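The scaling changed the most. On library sizes, the rises fell to 4 members and 1448 genes in MII and to 4 members and 1476 genes in ‘damaged’ oocytes, while the falls grew to 20 members and 7611 genes, and to 18 and 7403, with the median of all genes moved as given above. The signs of *UBE2C* (-0.37 in MII, -0.17 in ‘damaged’), *UBE2S* (-0.22 in ‘damaged’) and *UBA1* (-0.67 and -0.55) turned there. A filter of 10 CPM kept 28 members, with no value for *UBE2D4*, *UBE2J1*, *UBE2L6*, *UBE2M*, *UBE2O* and *UBE2Z*, and gave 2889 falls of all genes in MII and 2838 in ‘damaged’ oocytes, since fewer genes were tested, and *UBA1* then had -0.0868 in MII. *UBE2C* in ‘damaged’ oocytes passed the FDR with DESeq2 (0.77), library weights (0.67) and all 5 GV libraries (0.81), and *UBE2C* in MII with the 8 libraries whose columns carry their own name, an alternative added after seeing the data (1.09). *UBE2S* in MII was above 0 with DESeq2 (0.0508) and library weights (0.19).

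Leaving out each library gave 10 to 12 rises and 10 to 11 falls of members in each comparison with GV. Log2 fold changes were 0.39 to 0.74 and 0.49 to 0.89 for *UBE2C*, and -0.57 to 0.46 and 0.15 to 1.14 for *UBE2S*, in MII and ‘damaged’ oocytes. Member transcripts called were 5 to 13 and 8 to 16. Same-numbered libraries of different groups deviated with correlations of -0.11 to 0.37, over 0.1 in 4 of 13 pairs. That is a larger share than among differently numbered pairs, whose correlations ran from -0.32 to 0.34. The labels do not tie a number to a collection, so whether the numbers pair the libraries was not settled. The main fit has no block, and the block is given as an alternative. With the replicate block, 11 members rose and 12 fell in MII (with *UBE2E1* higher and *SAE1*, at -0.47, and *UBE2A* lower), 12 rose and 11 fell in ‘damaged’ oocytes (with *UBE2E1* and *UBE2S* higher and *UBE2A* lower), *UBE2S* had 0.35 in MII and 1.11 in ‘damaged’ oocytes (FDR 0.00957), and 8 and 12 transcripts were called. No alternative called any gene between MII and ‘damaged’ oocytes.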
